A study of Mus musculus with 6 samples.

Results

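Peroxisomal enzymes, peroxisomal membrane proteins and peroxins were described in intestinal organoids that had been treated with low-density lipoprotein (LDL) or with PBS. The 39 genes were chosen by symbol from a list of 26 enzymes, transporters and other membrane proteins and 13 peroxins, the proteins that build peroxisomes, and were looked up among the 55416 genes of the deposited table. Each of the 39 symbols matched 1 row. Organoids, which are cultured epithelial structures grown from crypts, came from the duodenum and jejunum of 3 WT mice on the C57BL/6 background, and each mouse gave 1 culture with 50 μg/ml LDL and 1 with PBS, both for 5 days. RNA of each culture was sequenced as 1 library, so that there were 3 LDL-treated and 3 PBS-treated libraries, paired by mouse. No group carried a transgene or a deletion by its genotype label, and such organoids hold epithelium without the stroma, vessels and immune cells of the intestine.

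Peroxisomes are organelles bounded by a single membrane that shorten very-long-chain, branched-chain and dicarboxylic fatty acids by β-oxidation, break down phytanic acid by α-oxidation, begin the synthesis of ether lipids and destroy hydrogen peroxide with catalase. Their enzymes are made in the cytosol and carried in by import receptors, which dock at the membrane, release their cargo and are recycled. Many genes of peroxisomal fatty acid oxidation are known targets of the nuclear receptor PPARα, and in the intestinal epithelium these genes are known to be expressed most in absorptive enterocytes.

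Between 22061545 and 31073360 reads were counted on genes per library. The LDL-treated library of mouse 1 stood apart, since 7.62% of its reads lay on the ribosomal RNA gene Rn18s-rs5 and 68.3% on protein-coding genes, against 77.1% to 81.8% in the other 5 libraries, and 35781 genes had a read in it against 29285 to 32751. The animal identifier of mouse 3 differs in form from those of mice 1 and 2, although the genotype label is WT for all 3. The 8 epithelial markers summed to between 87236 and 131889 normalized counts per library, whereas the 11 stromal markers summed to 105 to 202, the 5 endothelial markers to 16.4 to 39.03, the 8 immune markers to 150 to 241 and the 6 markers of enteric glia and neurons to 164 to 222. In bulk RNA, fewer cells of a type and less RNA per cell cannot be told apart.

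In the comparison of LDL with PBS, 10 of the 38 members that could be tested rose and 1 fell at an adjusted p-value under 0.05, where 8.27% of all 18459 genes tested rose and 7.45% fell. The genes that rose were Abcd3, Ehhadh, Hsd17b4, Acaa1b, Eci2, Crot, Acot4, Agps, Pxmp4 and Pex11a, and the gene that fell was Pex7. Thus 9 of the 25 enzymes and membrane proteins tested rose and 0 fell, and 1 of the 13 peroxins rose and 1 fell. By an unadjusted p-value under 0.05, 9 enzymes and membrane proteins were higher and 2 were lower, where 14.4% of all genes tested were higher and 15.7% lower. edgeR with the same design called the same 11 members, where it called 9.39% of all genes higher and 7.35% lower, and DESeq2 called the same 10 members higher and 0 lower, where it called 7.63% and 6.19%. The median log2 fold change was 0.16 over enzymes and membrane proteins, -0.04 over peroxins and -0.02 over all genes tested. Among the genes that rose, 8 enzymes or membrane proteins and 1 peroxin changed by more than 1.5-fold, as did 5.68% of all genes tested, and the fall of Pex7 did not reach that size, which 3.46% of all genes did. With LDL, 11 members were higher in all 3 mice and 5 were lower in all 3, where 24.2% and 26.8% of all genes tested were. LDL-treated and PBS-treated libraries did not overlap for 9 members that were higher, where 11.9% of all genes tested behaved so, and for 2 that were lower, Pecr and Pex7, where 12.3% did. Abcd2, a transporter of very-long-chain acyl-CoA, had 4 reads in all libraries together and was not tested.

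How many of these calls were made without the mouse in the fit differed between the tools. With limma, Abcd3, Acaa1b and Crot were called, while the other 8 had adjusted p-values of 0.0790 to 0.248, and 0.932% of all genes tested rose and 0.412% fell. edgeR called the same 3 members, where it called 1.07% of all genes higher and 0.412% lower. DESeq2 called 9 of the 11, all except Ehhadh (adjusted p = 0.0809) and Pex7 (adjusted p = 0.118), where it called 5.5% of all genes higher and 2.93% lower. The same 3 members were called by limma when mouse 3 was left out, where the other 8 had adjusted p-values of 0.0872 to 0.253 and 1.44% of all genes tested rose and 0.417% fell. Without mouse 1, whose LDL-treated library stood apart, the 10 members that rose were called again, and Pex7 was not (adjusted p = 0.159 by limma), where 4.91% of all genes tested rose and 3.09% fell.

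**Figure D1:**
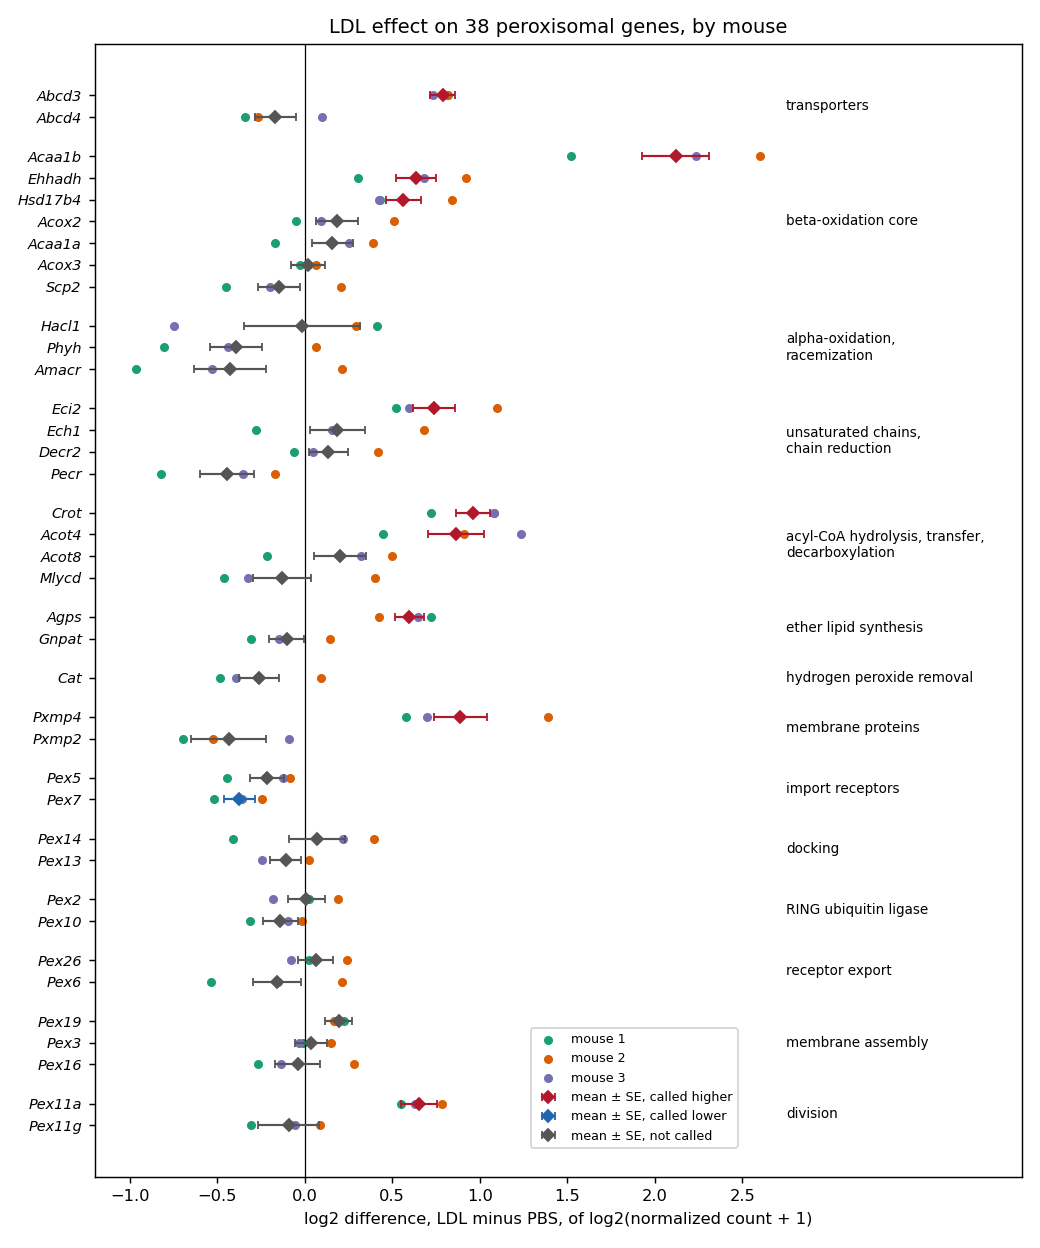
Log2 fold change of LDL against PBS for the 38 members tested, grouped by role, with the fitted mean and its SE (n = 3 mice) as diamonds, red for higher, blue for lower and grey for members that did not pass, and 1 point per mouse. Acaa1b lies farthest to the right at 2.12, the other 8 enzymes and membrane proteins that rose lie between 0.56 and 0.96, and the peroxins lie close to 0 except Pex11a at 0.66 and Pex7 at -0.37.

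Of the 2 transporters tested, Abcd3 rose. Abcd3, which imports long-chain, branched-chain and dicarboxylic acyl-CoA esters into peroxisomes (chromosome 3, 121552423 to 121609141, GRCm39), had normalized counts of 5501, 6528 and 5425 (mice 1, 2 and 3, in that order throughout) with LDL and 3118, 3718 and 3261 with PBS. Every LDL-treated library lay above every PBS-treated library, and within the mice the ratio was 1.76, 1.76 and 1.66. The mean was 5818 ± 616 (SD, n = 3) against 3365 ± 314 (SD, n = 3), a log2 fold change of 0.79 (SE 0.07, adjusted p = 0.000665 by limma). Abcd4, which belongs to the same family but is known to act in lysosomal cobalamin transport, gave -0.17 on the log2 scale (adjusted p = 0.386).

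Of the 7 enzymes of the β-oxidation core, 3 rose. All 3 act after the oxidation step, and neither of the oxidases passed the test. Acox2, the oxidase for branched-chain and bile acid intermediates, had a fitted log2 change of 0.18 (adjusted p = 0.362), and Acox3, an oxidase for branched-chain acyl-CoA, one of 0.02 (adjusted p = 0.927). Both bifunctional enzymes, which hydrate and then dehydrogenate the chain, rose. Ehhadh, the L-bifunctional enzyme (chromosome 16, 21580036 to 21606563), had normalized counts of 1209.9, 2625 and 1618 with LDL and 978, 1386 and 1009.5 with PBS. It was higher with LDL in each mouse, with ratios of 1.24, 1.89 and 1.60, although the LDL-treated library of mouse 1 lay below the PBS-treated library of mouse 2. Its log2 fold change was 0.64 (SE 0.12, adjusted p = 0.0105, and 0.248 without the mouse in the fit). Hsd17b4, the D-bifunctional enzyme, had normalized counts of 3588, 5558 and 4003 with LDL and 2666, 3107 and 2979 with PBS. The groups did not overlap, the means were 4383 ± 1039 and 2917 ± 227 (SD, n = 3 each), and the log2 fold change was 0.56 (SE 0.10, adjusted p = 0.00900).

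The last step, in which a thiolase cuts acetyl-CoA from the chain, showed the largest rise among the members. The mouse has a pair of closely related thiolase genes, Acaa1a (chromosome 9, 119168742 to 119182956, forward strand) and Acaa1b (chromosome 9, 118977091 to 118986161, reverse strand), whose coding sequences of 1275 bases were identical at 1231 positions (96.5%) and differed at 44. Where these differences lie decides which reads can be given to which gene, so the stretch of 120 coding bases with the most of them is shown for both, 5′ to 3′ from coding base 433 to 552 in exons 5 to 7 of 12, with the 14 differing bases in capitals. In GRCm39 it spans chr9:119173561-119176802 on the forward strand for Acaa1a and chr9:118979966-118982751 on the reverse strand for Acaa1b, introns included.
Acaa1a: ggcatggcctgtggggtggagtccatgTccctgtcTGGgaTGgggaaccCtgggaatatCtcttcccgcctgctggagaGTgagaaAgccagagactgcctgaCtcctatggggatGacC
Acaa1b: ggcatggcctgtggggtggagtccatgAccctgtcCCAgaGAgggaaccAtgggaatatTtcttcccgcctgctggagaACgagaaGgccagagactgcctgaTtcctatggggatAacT

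Acaa1b had normalized counts of 366, 1067 and 677 with LDL and 127, 175 and 143 with PBS. All LDL-treated libraries lay above all PBS-treated libraries, with the highest value in mouse 2 and ratios within the mice of 2.89, 6.09 and 4.73. The means were 703 ± 351 and 148 ± 24.7 (SD, n = 3 each), and the log2 fold change was 2.12 (SE 0.19, adjusted p = 0.000570, and 0.0353 without the mouse in the fit). Acaa1a, the more abundant copy in PBS-treated organoids, had normalized counts of 750.1, 1417 and 1259 with LDL and 845, 1079 and 1055 with PBS. Its groups overlapped, it was lower with LDL in mouse 1 and higher in mice 2 and 3, and its log2 fold change was 0.16 (SE 0.11, adjusted p = 0.409). In the canonical Acaa1b transcript, 356 of 1589 stretches of the length of a read occurred also in Acaa1a (22.4%), so part of the reads of the pair cannot be assigned by sequence. The sum of both genes does not depend on that assignment if such reads were counted at all, and it was 1116, 2484 and 1937 with LDL and 972, 1254 and 1198 with PBS, with ratios of 1.15, 1.98 and 1.62. Acaa1b made up 32.8%, 43.0% and 35.0% of this sum with LDL and 13.03%, 13.97% and 11.96% with PBS, so its share was higher in every LDL-treated library. Scp2, whose longer product is the thiolase for branched chains and whose shorter product binds lipids, had a fitted log2 change of -0.15 (adjusted p = 0.464), and 31.7% of the read-length stretches of its transcript occurred also in the gene Gm67972.

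None of the 3 genes of α-oxidation and racemization passed the test, where 1 was lower at an unadjusted p-value under 0.05 and edgeR and DESeq2 called 0. Amacr, the racemase that prepares branched chains for β-oxidation, had normalized counts of 146, 386 and 215 with LDL and 287, 333 and 310.2 with PBS. Mice 1 and 3 were lower with LDL and mouse 2 was higher, and the groups overlapped. The log2 fold change was -0.43 (SE 0.20, adjusted p = 0.206). Phyh, which hydroxylates phytanoyl-CoA, had a fitted log2 change of -0.39 (adjusted p = 0.121) with the same split between the mice. Hacl1, the lyase of the next step, had at most 24.6 normalized counts in a library and a log2 fold change of -0.01 (adjusted p = 0.984). Since 47.2% of its read-length stretches occurred also in Gm49387, its level is uncertain.

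Of the 4 enzymes that handle double bonds or reduce chains, Eci2 rose. Eci2, an enoyl-CoA isomerase that moves the double bond of unsaturated chains (chromosome 13, 35161718 to 35211079), had normalized counts of 904, 1825 and 1128 with LDL and 629.8, 852 and 747 with PBS. The groups did not overlap and each mouse was higher with LDL, with ratios of 1.44, 2.14 and 1.51. The means were 1286 ± 480.5 and 743 ± 111 (SD, n = 3 each), and the log2 fold change was 0.74 (SE 0.12, adjusted p = 0.00659). Eci2 overlaps the opposite-strand transcript Gm16984 in 288 exon bases, and 1.76% of its read-length stretches occurred also in Eci3. Decr2, a dienoyl-CoA reductase, and Ech1, a dienoyl-CoA isomerase, had log2 fold changes of 0.14 and 0.19 (adjusted p = 0.476 and 0.482). Pecr, an enoyl-CoA reductase, was lower with LDL in every mouse, with normalized counts of 127, 215 and 169.7 with LDL and 225, 241 and 217 with PBS, and the highest LDL-treated library lay just under the lowest PBS-treated one. Its log2 fold change of -0.45 (SE 0.15) did not pass the test (adjusted p = 0.0934).

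The enzymes that release or hand on shortened chains included 2 that rose, of 4 tested. Crot, the carnitine octanoyltransferase that prepares medium chains for export from peroxisomes to mitochondria (chromosome 5, 8985926 to 9047393), had normalized counts of 1444, 1948 and 1494 with LDL and 875, 919.5 and 706 with PBS. Every LDL-treated library lay well above every PBS-treated one, and the ratios within the mice were 1.65, 2.12 and 2.12. The means were 1629 ± 278 and 833 ± 113 (SD, n = 3 each), and the log2 fold change was 0.96 (SE 0.10, adjusted p = 0.000918, and 0.0305 without the mouse in the fit).

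Acot4, a thioesterase that frees dicarboxylic acids from CoA (chromosome 12, 84085081 to 84095375), had normalized counts of 293, 400.1 and 287 with LDL and 214, 212 and 121 with PBS. The groups did not overlap, and the ratio was lowest in mouse 1 at 1.37 and highest in mouse 3 at 2.36. Its log2 fold change was 0.86 (SE 0.16, adjusted p = 0.0108). Acot4 shares 1115 exon bases with the opposite-strand transcript 4732463B04Rik, which rose by 0.69 on the log2 scale (adjusted p = 0.0470). Libraries were stranded, but the strand setting of the counting is not given in the sources used here, so the part of 4732463B04Rik in the Acot4 value was not tested. Among the other members that rose, shorter overlaps with opposite-strand genes that had reads were found for Acaa1b (Dlec1, 224 exon bases), Crot (Abcb4, 105 bases) and Pex11a (Wdr93, 7 bases), beside that of Eci2. Members that were not called had such overlaps too, among them Pex11g (Arhgef18, 230 bases) and Acaa1a (Myd88, 628 bases). Myd88 had a fitted log2 change of 0.30 (adjusted p = 0.0780 by limma). Its part in the Acaa1a values, and so in the sum and shares of the Acaa1 pair, was not tested. Acot8, a thioesterase of broad range, had a fitted log2 change of 0.20 (adjusted p = 0.418), and Mlycd, which removes malonyl-CoA, one of -0.13 (adjusted p = 0.660).

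Ether lipid synthesis starts in peroxisomes with Gnpat, which acylates dihydroxyacetone phosphate, and goes on with Agps, which exchanges the acyl for an alkyl group. Agps (chromosome 2, 75662455 to 75761694) had normalized counts of 3600.5, 2544 and 3201 with LDL and 2187, 1896 and 2039 with PBS. The groups did not overlap, and the LDL-treated library of mouse 2, which was the highest LDL-treated library for most members, was the lowest for Agps. The means were 3115 ± 534 and 2041 ± 145 (SD, n = 3 each), and the log2 fold change was 0.60 (SE 0.08, adjusted p = 0.00387). Gnpat had a fitted log2 change of -0.10 (adjusted p = 0.541), lower with LDL in mice 1 and 3 and higher in mouse 2. The difference between Agps and Gnpat was not tested.

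Catalase, which breaks down the hydrogen peroxide that the oxidases make, did not pass the test. Cat had normalized counts of 2978, 6585 and 3573 with LDL and 4167, 6167 and 4685 with PBS. Mouse 2 had by far the highest value in each group, and its LDL-treated library was slightly above its PBS-treated one, whereas mice 1 and 3 were lower with LDL. The log2 fold change was -0.26 (SE 0.12, adjusted p = 0.178).

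Of the other membrane proteins, Pxmp4, whose biochemical role is not settled (chromosome 2, 154427678 to 154445656), rose. Its normalized counts were 716, 1684 and 886 with LDL and 479.8, 642 and 545 with PBS. Groups did not overlap, and the ratio was 2.62 in mouse 2 against 1.49 and 1.63 in mice 1 and 3. The means were 1095 ± 517 and 556 ± 81.9 (SD, n = 3 each), and the log2 fold change was 0.89 (SE 0.15, adjusted p = 0.00795). Pxmp2, which forms a channel for small solutes, was low, between 28.1 and 69.6 normalized counts in the 6 libraries, with a log2 fold change of -0.43 (SE 0.22, adjusted p = 0.224).

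**Figure D2:**
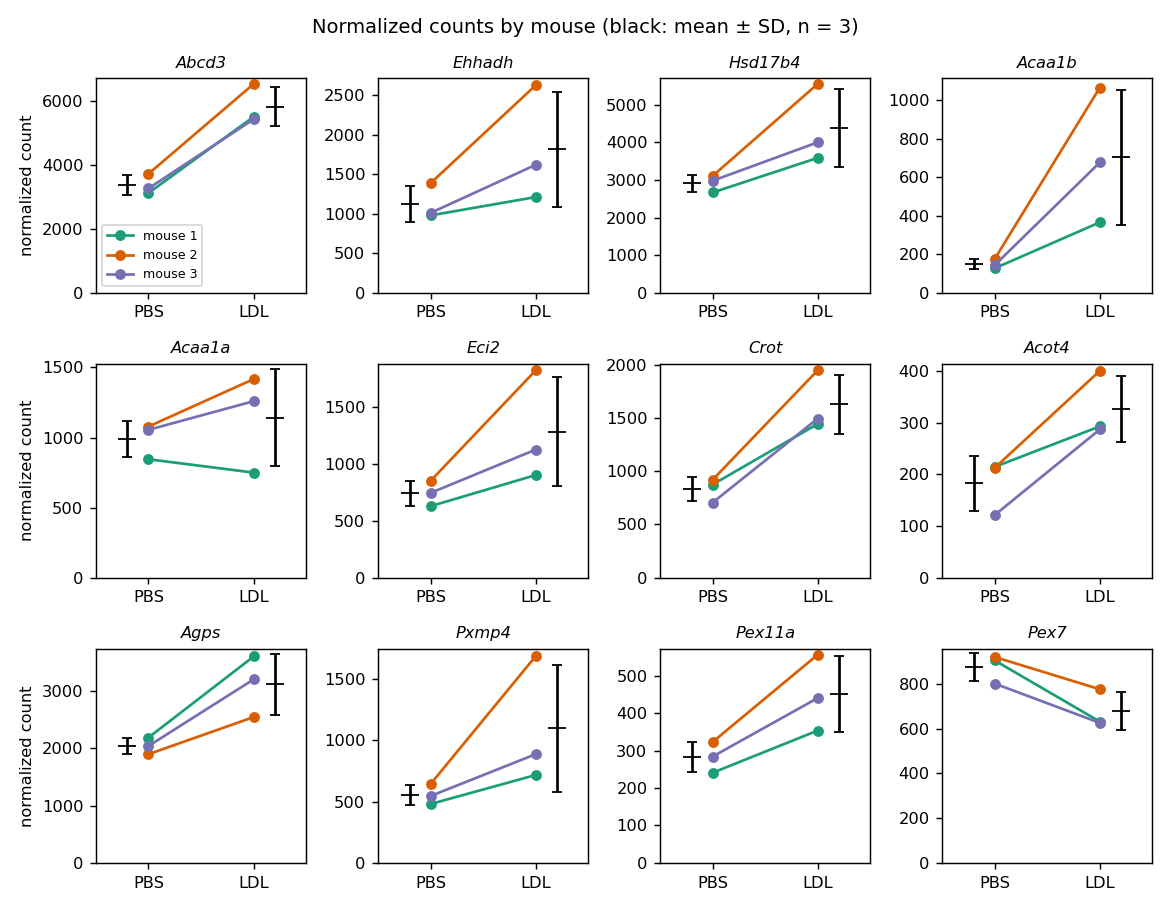
Normalized counts of the 11 called members and of Acaa1a in the 6 libraries, on axes that start at 0, with a line joining the libraries of each mouse and the mean and SD of each treatment (n = 3) in black. Lines of all 3 mice rise for 10 members, most steeply for Acaa1b, and fall for Pex7, and mouse 2 carries the highest LDL-treated value in every panel except that of Agps.

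Of the 13 peroxins, 11 did not pass the test, with log2 fold changes between -0.22 and 0.19 and adjusted p-values of 0.127 to 0.963. Pex7, the import receptor for proteins with the N-terminal targeting signal, which in mammals include thiolase, Phyh and Agps (chromosome 10, 19729646 to 19783436), fell. Its normalized counts were 632, 777 and 626 with LDL and 905, 921 and 802 with PBS. All LDL-treated libraries lay below all PBS-treated ones, but the highest of the former and the lowest of the latter were close. The means were 678 ± 85.3 and 876 ± 64.6 (SD, n = 3 each), and Pex7 fell by 0.37 on the log2 scale (SE 0.09, adjusted p = 0.0286). DESeq2 with the mouse in the design did not call it (adjusted p = 0.0569). Pex5, the receptor for the more common C-terminal targeting signal, had a fitted log2 change of -0.22 (adjusted p = 0.189).

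At the docking site, Pex13 had normalized counts of 711, 816 and 636 with LDL and 769, 800.3 and 752 with PBS, overlapping groups, and a log2 fold change of -0.11 (adjusted p = 0.469), and its partner Pex14 had one of 0.07 (adjusted p = 0.813). Neither RING-type ubiquitin ligase, which mark the receptors for recycling, passed the test. Pex10 had normalized counts of 332, 493 and 513 with LDL and 411, 498 and 549 with PBS and a log2 fold change of -0.14 (adjusted p = 0.402), and Pex2 had a fitted log2 change of 0.01 (adjusted p = 0.963). The groups overlapped for both. Pex6, an ATPase that pulls the receptors back out, had normalized counts of 437, 627 and 542 with LDL and 633, 541 and 602 with PBS and a log2 fold change of -0.16 (adjusted p = 0.5001), and its membrane anchor Pex26 had one of 0.06 (adjusted p = 0.720).

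For the assembly of the membrane itself, Pex19, which brings membrane proteins to the organelle, had normalized counts of 1168, 1380.5 and 1265 with LDL and 1000.4, 1230.2 and 1108 with PBS. It was higher with LDL in each mouse, but the groups overlapped and the log2 fold change of 0.19 (SE 0.07) did not pass the test (adjusted p = 0.127). Its docking partners Pex3 and Pex16 had log2 fold changes of 0.04 and -0.04 (adjusted p = 0.832 and 0.871). Pex11a, which elongates the membrane before peroxisomes divide (chromosome 7, 79385705 to 79392879), was the peroxin that rose, with normalized counts of 354, 557 and 441 with LDL and 241, 323 and 284 with PBS. Its groups did not overlap, the ratios within the mice were 1.47, 1.72 and 1.55, the means were 450.3 ± 102 and 283 ± 41.1 (SD, n = 3 each), and the log2 fold change was 0.66 (SE 0.10, adjusted p = 0.00593). Pex11g, a relative of Pex11a with 60.8% identity over the aligned coding bases, had normalized counts of 75.6, 75.5 and 73.6 with LDL and 93.9, 70.8 and 76.5 with PBS and a log2 fold change of -0.09 (adjusted p = 0.776), with overlapping groups.

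The members' differences varied between the 3 mice. With LDL, 14 of the 38 members were higher in mouse 1, 32 in mouse 2 and 19 in mouse 3, where 46.2%, 50.2% and 48.3% of all genes tested were higher. Over the 25 enzymes and membrane proteins, the median log2 difference between the LDL-treated and PBS-treated library was -0.06 in mouse 1, 0.42 in mouse 2 and 0.10 in mouse 3, and over the 13 peroxins it was -0.27, 0.17 and -0.10. Thus the median of each list was highest in mouse 2 and lowest in mouse 1, and the sign of both medians differed between the mice. With 1 library for each treatment in a mouse, a difference between mice in the response could not be tested.

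In the LDL-treated group the library of mouse 2 held the highest value for 33 of 38 members, against 40.0% of all genes tested, and in the PBS-treated group it did so for 23 members, against 33.8%. A set of 11 members (Amacr, Cat, Gnpat, Mlycd, Pex3, Pex6, Pex11g, Pex13, Pex16, Phyh and Scp2) was lower with LDL in mice 1 and 3 and higher in mouse 2, as were 13.2% of all genes tested. Without mouse 2, the same 10 members rose, where 14.2% of all genes tested did, and 9 fell, namely Amacr, Cat, Mlycd, Pecr, Phyh, Scp2, Pex5, Pex6 and Pex7, where 16.6% of all genes tested fell. In that fit the adjusted p-value by limma was 5.60e-05 for Phyh, 0.000164 for Cat, 0.000462 for Amacr and 0.00531 for Scp2. These genes had already been seen to be lower in mice 1 and 3, so leaving out mouse 2 fixed the direction in advance. With so few libraries, the p-values also rest largely on the variance that limma shares between genes. They are therefore no added evidence of a fall. Summed normalized counts of 14 enterocyte markers were also highest in mouse 2, with 75502, 126165 and 80830 with LDL and 59893, 109324 and 59999 with PBS. Sums of 8 stem cell markers were 38963, 45893 and 41859 with LDL and 49954, 41250 and 61842 with PBS, higher with LDL in mouse 2 and lower in mice 1 and 3. Of the single markers, only the most abundant, Slc12a2, had this split. Olfm4 and Smoc2 were lower with LDL in all 3 mice, and Ascl2 and Rnf43 were higher in all 3. Lgr5 and Axin2 were higher in mice 1 and 2, and Znrf3 in mice 2 and 3. The part of either marker list in the members' values was not tested.

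**Figure D3:**
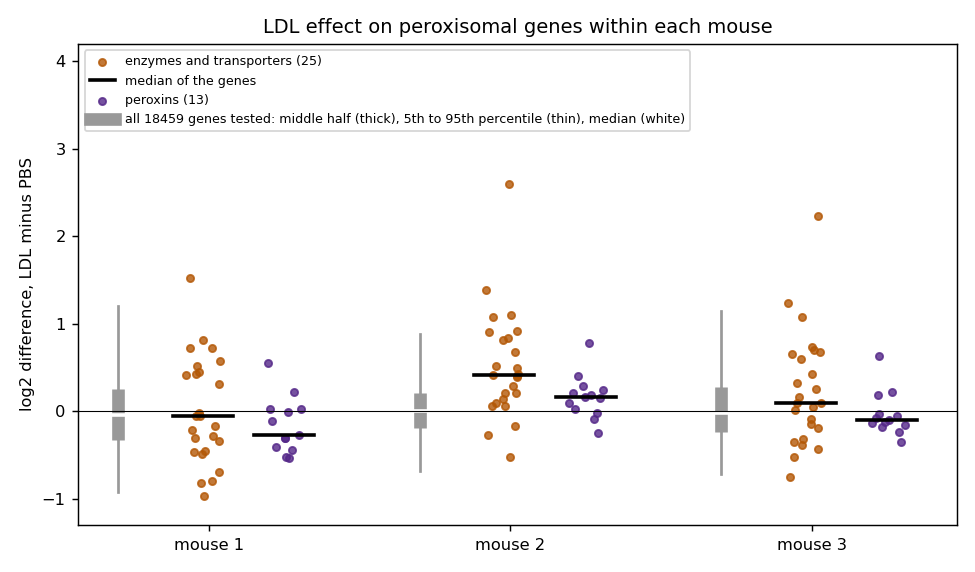
Log2 difference of LDL against PBS within each mouse, with 1 point per member, black lines at the medians of the 25 enzymes and membrane proteins and of the 13 peroxins, and grey bars for the spread of all 18459 genes tested. Points of mouse 2 lie mostly above 0 (32 of 38), and those of mouse 1 mostly below it (14 of 38 above).

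Levels of different genes were compared in PBS-treated organoids as reads per kilobase of exon, scaled to the reads on genes of each library (RPKM). The length was that of all annotated exons of a gene together, which exceeds the canonical transcript far more for some members than for others. Scp2 had 6938 such bases but 2567 read-length stretches in its canonical transcript, and Ehhadh had 3100 and 2888. The order given here holds for this length only, and an order by transcript length was not made. Cat stood first with 52.5 ± 8.02 RPKM (SD, n = 3), followed by Hsd17b4 with 21.2 ± 0.9996, Abcd3 with 18.6 ± 0.752, Scp2 with 16.2 ± 1.54, Ech1 with 14.5 ± 1.07 and Ehhadh with 14.0 ± 2.04. Cat, Hsd17b4 and Abcd3 lay apart by more than their SDs, whereas Scp2 and Ech1, and Ech1 and Ehhadh, did not. These were the 6 members above 10 RPKM, and the median of the 38 was 3.79. On this scale, enzymes that rose came from both ends of the range. Hsd17b4, Abcd3 and Ehhadh were among the most abundant members, and Acaa1b, with 1.25 ± 0.142 RPKM, was number 33 in the order. Acaa1b reached 5.92 ± 3.13 RPKM (SD, n = 3) with LDL. Hacl1 at 0.115 ± 0.0152 RPKM and Pxmp2 at 0.606 ± 0.0954 RPKM were the lowest of those tested. The ribosomal reads in the LDL-treated library of mouse 1 enter this scale, so differences between treatments were read from normalized counts.

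**Figure D4:**
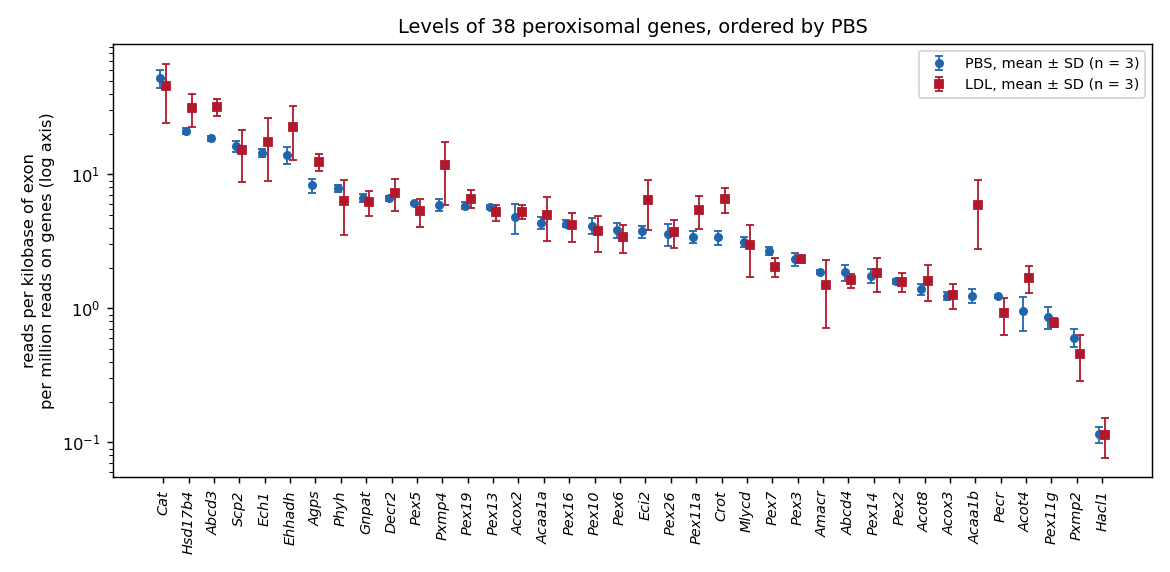
Mean level of each tested member (RPKM, log axis, with the SD of 3 libraries) in PBS-treated organoids in blue and LDL-treated organoids in red, ordered by the PBS-treated level. With PBS, Cat is highest at 52.5 RPKM, Acaa1b lies near the bottom at 1.25 and Hacl1 is lowest at 0.115.

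Other genes of peroxisomes, a list of 43 written from general knowledge that does not cover the whole organelle, were counted beside the members. Of 36 tested, 7 rose and 1 fell, with a median log2 fold change of -0.02. Hsdl2, a dehydrogenase-like protein with a lipid-binding domain, had normalized counts of 1460.0, 1889.7 and 1324 with LDL and 500.2, 552 and 480.3 with PBS and rose by 1.59 on the log2 scale (SE 0.09, adjusted p = 8.57e-05). Acot3, a thioesterase for long chains beside Acot4 in the same gene cluster, was low, with 14.6, 40.0 and 23.4 with LDL and 5.10, 8.70 and 4.88 with PBS, and rose by 1.83 (SE 0.34, adjusted p = 0.0105). Far1, which makes the fatty alcohol that Agps uses, had 1181, 487 and 855 with LDL and 516, 316 and 418 with PBS and rose by 0.95 (SE 0.12, adjusted p = 0.00269). Like Agps, it was lowest in mouse 2 in both groups. Pipox, an oxidase of pipecolic acid and sarcosine, had 65.9, 188 and 79.4 with LDL and 285, 420.0 and 315 with PBS and fell by 1.74 (SE 0.19, adjusted p = 0.00146). Without the mouse in the fit, limma called 1 of these 36 genes, Hsdl2, and DESeq2 called 3 higher and 1 lower.

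Mitochondrial β-oxidation, which receives the chains that peroxisomes have shortened, was described beside them. Of 17 genes tested, 7 rose and 4 fell, with a median log2 fold change of 0.23, and without the mouse in the fit limma called 4 higher and 0 lower and DESeq2 5 higher and 1 lower. At an unadjusted p-value under 0.05 in the fit with the mouse, 5 were lower, and edgeR and DESeq2 with that design called 4 lower. Slc25a20, the carrier of acylcarnitines, rose by 1.13 on the log2 scale (adjusted p = 0.00148), Cpt1a, the gatekeeper of entry, by 1.05 (adjusted p = 0.000203), Hadhb, the thiolase subunit of the trifunctional protein, by 0.94 (adjusted p = 0.00205) and Acadl, a long-chain dehydrogenase, by 0.91 (adjusted p = 0.000353). Genes that were not called included Acads (log2 fold change -0.06, adjusted p = 0.788), Decr1 (0.12, adjusted p = 0.567) and Acaa2 (0.23, adjusted p = 0.214). Hadh, the dehydrogenase for short and medium hydroxyacyl-CoA, fell by 0.83 (adjusted p = 0.0107), Echs1, the short-chain hydratase, by 0.72 (adjusted p = 0.00727), Eci1, an enoyl-CoA isomerase, by 0.55 (adjusted p = 0.0305) and Acadm, the medium-chain dehydrogenase, by 0.37 (adjusted p = 0.0373).

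Among markers of cell types, 4 of 8 epithelial markers rose and 0 fell, 5 of 14 enterocyte markers rose and 4 fell, and 2 of 8 stem cell markers rose and 2 fell. For epithelial markers 0 were lower at an unadjusted p-value under 0.05, and edgeR and DESeq2 called 0 lower. Without the mouse in the fit, limma called 0 epithelial, 1 enterocyte and 0 stem cell markers higher, and 0 of each list lower. DESeq2 with the mouse in the fit called 0 stem cell markers lower. Of the markers of other cell types, 4 of 11 stromal, 1 of 5 endothelial, 3 of 8 immune and 3 of 6 glial or neuronal markers were abundant enough to be tested, and every listed marker had a read in some library. Among these 11 tested, 1 rose and 1 fell. S100b, a calcium-binding protein of glia, had normalized counts of 39.03, 14.6 and 32.6 with LDL and 1.02, 4.97 and 1.63 with PBS and rose by 3.12 on the log2 scale (adjusted p = 0.0106, and 0.0437 without the mouse in the fit). Vim, an intermediate filament protein of mesenchymal cells, had 72.0, 68.2 and 97.8 with LDL and 106, 104 and 140.0 with PBS and fell by 0.56 (adjusted p = 0.0470 by limma). This call was not made by limma without the mouse in the fit (adjusted p = 0.202). With the mouse in the fit, edgeR (adjusted p = 0.0516) and DESeq2 (adjusted p = 0.205) did not make it either. Summed stromal markers were 105 to 184 normalized counts with LDL and 185 to 202 with PBS. The part of these markers in the members' values was not tested.

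Promoters of the members were searched for the direct repeat of AGGTCA with a spacer of 1 base of any kind, the textbook form of the element that PPAR bind with their partner receptor, since members that rose include known targets of these receptors. RefSeq promoters (250 bases before to 50 after the start, from a table of GRCm38.p6) were searched on both strands for 32 of the 39 members, 37 promoters in all. Abcd2, Abcd4, Hsd17b4, Amacr, Pxmp2, Pex2 and Pex19 had no promoter in the set searched. Hsd17b4, which rose, is thus not covered. The exact repeat was in 0 of the 37 and in 0.0396% of all 32851 promoters. With at most 1 of its 12 fixed letters changed, it was in 0 and in 0.554%. With at most 2 changed, it was in 3 promoters (8.11%), those of Acot4, Acox2 and Cat, and in 3.86% of all. Only the first of these genes rose, and the nearest match in the promoters of Acaa1b and Pex11a had 4 and 5 letters changed. In Acox2 the match began after the start. The 250 bases before the start are shown for the other two, with the match in capitals, because they set a gene that rose beside one that did not, and each was placed in GRCm39 by an exact match (chr12:84084903-84085152, forward strand, and chr2:103315499-103315748, reverse strand).
Acot4: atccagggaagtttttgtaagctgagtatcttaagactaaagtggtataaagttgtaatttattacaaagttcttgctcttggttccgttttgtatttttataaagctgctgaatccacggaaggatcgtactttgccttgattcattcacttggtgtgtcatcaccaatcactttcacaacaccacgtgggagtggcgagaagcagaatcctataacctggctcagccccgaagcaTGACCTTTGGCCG
Cat: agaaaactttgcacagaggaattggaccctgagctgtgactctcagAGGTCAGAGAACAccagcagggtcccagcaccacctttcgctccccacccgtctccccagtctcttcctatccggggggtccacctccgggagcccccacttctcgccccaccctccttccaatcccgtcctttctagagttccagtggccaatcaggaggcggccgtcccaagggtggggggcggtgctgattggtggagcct
The match began 13 bases before the start of Acot4 and read against the direction of the gene, and 204 bases before that of Cat in the direction of the gene. A match of these letters is a description of the sequence, and binding was not measured.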

How the data were processed

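RNA of organoids from 3 mice, each with LDL and with PBS, was sequenced by the authors from 1 end after removal of ribosomal RNA, aligned to GRCm39 with STAR and counted per gene with featureCounts. The strand setting of the counting is not given in the sources used here. The deposited values are a signal in normalized counts: the authors' reads divided by 1 size factor per library. In 100% of values the reads came out whole (relative tolerance 0.001), and these reads were used for edgeR and DESeq2. Of 55416 genes, 12377 had no read. Positions came from GENCODE M39, which holds 54749 of the identifiers.

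Log2 values of the normalized count plus 1 were tested with limma (trend, two-sided, mouse as a block) for the 18459 genes whose mean reached 10. Benjamini-Hochberg adjustment covered all of them, and the threshold for a call was an adjusted p-value of 0.05. A fold change is on this scale and understates the change of low genes. The mouse was a block because the labels give both libraries of a replicate number the same animal identifier. After removal of the treatment means, the correlation across genes was r = 0.484, 0.421 and 0.462 within mice 1, 2 and 3. Removing the means makes the values between mice negative, so these are no further evidence. P-values of this fit measure the spread of the difference between LDL and PBS over 3 mice, since level differences between mice are removed by the block. The variance of each gene is drawn toward a trend over all genes tested, so these p-values do not rest on a gene's own spread alone. For a single gene, an exact test of 3 against 3 libraries cannot go below p = 0.1, nor one over 3 pairs below 0.25.

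The members and lists were chosen with earlier results of these data known, so no test over a list was made and the lists' counts are descriptions. Library values were given for members that were called or whose call differed without the block, for Acaa1a and Acaa1b, and for the member with the largest change in each role without a call (Pecr and Pex11g were added after their values were seen). At most 4 called genes of each other list were named by size of change, and the mitochondrial genes that fell, S100b and Vim were added after their values were seen. The depth was 22061545 to 31073360 reads on genes, and where a gene had 0 reads, up to 3 were possible by counting error.

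Fits were made in R 4.3.3 with limma 3.58.1, edgeR 4.0.16 and DESeq2 1.42.0 and were tested on simulated data, and the other steps used Python 3.11.15 (numpy 2.4.6, pandas 2.3.3, matplotlib 3.10.9). Alternatives were no block, pseudocounts of 0.5 and 5, no filter, a minimum mean of 50, upper-quartile and quantile scaling, edgeR and DESeq2 with the block, a change of more than 1.5-fold, and each mouse left out. The fits of edgeR and DESeq2 without the block were added after the data were seen. Promoter sequences came from RefSeq and transcripts from GENCODE. Results for some genes are left out of this text.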

Additional observations from a re-analysis of the deposited data

How the results depend on the processing

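With 3 mice, the calls depended on which mouse was left out and, for limma and edgeR more than for DESeq2, on the block for the mouse. Without the block, limma called 172 genes higher and 76 lower among all genes tested, 3 enzymes and 0 peroxins higher and 0 peroxins lower, 1 other peroxisomal gene higher and 0 lower, and 4 mitochondrial genes higher and 0 lower. edgeR without the block gave 197 and 76 over all genes, and for the lists the same counts of 3, 0, 0, 1, 0, 4 and 0. DESeq2 without the block gave 1015 and 541 over all genes, 8 enzymes and 1 peroxin higher, 0 peroxins lower, 3 other peroxisomal genes higher and 1 mitochondrial gene lower, and with the block it called 0 peroxins lower. With a change of more than 1.5-fold required, 639 genes were lower over all genes, with 0 peroxins lower, 3 other peroxisomal genes higher and 2 mitochondrial genes lower. Leaving out 1 mouse at a time gave 265 to 2616 genes higher and 77 to 3062 lower, 3 to 9 enzymes higher and 0 to 6 lower, 0 to 1 peroxins higher and 0 to 3 lower, 1 to 8 other peroxisomal genes higher and 1 to 8 lower, and 4 to 7 mitochondrial genes higher and 0 to 5 lower. The lowest counts of enzymes that rose came without mouse 3 and the highest counts of genes that fell without mouse 2; the causes were not tested. The median log2 fold change ranged from -0.0042 to 0.30 for enzymes and membrane proteins and from -0.18 to 0.03 for peroxins. Both pseudocounts, both filters, both scalings and edgeR with the block kept all 11 calls of members, and the log2 fold change of a called member kept its sign in every alternative. Recovered reads carry no information on the strand, so genes with an overlapping gene on the opposite strand, 25 of the members, stay uncertain.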
